A study of Mus musculus with 3 samples.

Results

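The genes described here are 9 receptors for extracellular nucleotides and adenosine together with Entpd1, the surface enzyme that removes the nucleotides, measured in stimulated mouse macrophages. They were chosen by name: P2rx4, P2rx7, P2ry2, P2ry6, P2ry12, P2ry13, P2ry14, Adora2a, Adora2b and Entpd1 are 10 of the 55536 annotated genes in the tables, and their 57 annotated transcripts are among 141864. All 10 symbols were found once. The samples were 3 libraries, replicates 1 to 3 of 1 group: RNA from the cytosolic fraction, depleted of ribosomal RNA, of C57BL/6J bone marrow-derived macrophages that had received lipid A at 100 ng/ml for 50 min. Lipid A is the membrane anchor of bacterial lipopolysaccharide and acts on Toll-like receptor 4. The age and sex of the mice were not collected. The labels give the libraries separate biosample records but 1 donor label and do not say whether the cells came from separate animals or cultures, so a p-value measures only the spread between these libraries, which may be technical. No unstimulated sample was analysed here, and no level below is a response to lipid A.

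Cells that are damaged or activated release ATP and other nucleotides. P2X receptors are ion channels made of 3 subunits that ATP opens, P2Y receptors are G protein-coupled receptors for ATP, ADP, UTP, UDP or UDP-glucose, and adenosine (P1) receptors bind the nucleoside left when phosphates have been removed. In macrophages this system is known for inflammasome activation through P2X7, for the clearance of dying cells, and for the restraint of inflammation by adenosine.

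Some sequences bear on the results below. The first pair shows P2rx4 with and without an 81-base coding exon at chr5:122724594-122724674 (mm10, plus strand), because the transcripts of this gene were split between these forms. Capitals mark the exon, and lower case the 12 bases on each side of it in the transcript.
P2rx4 exon kept: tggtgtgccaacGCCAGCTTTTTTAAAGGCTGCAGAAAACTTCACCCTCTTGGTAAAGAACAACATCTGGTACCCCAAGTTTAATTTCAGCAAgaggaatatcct
P2rx4 exon skipped: tggtgtgccaacgaggaatatcct
Residue 451 of P2X7 is the site of a known difference between mouse strains that changes the response of the channel to ATP. The C57BL/6J reference codes for leucine there, at chr5:122680867-122680869 on the plus strand, and capitals mark the codon. It is shown because these macrophages are of that strain, and it is reference sequence, not read from the libraries.
P2rx7 codon 451: cacgactcacccCTGactcctggacaa
P2rx7 and Entpd1 each have a pair of first exons with their own start codon, so the choice of start changes the beginning of the protein. The first 45 coding bases are shown for each, with the start codon in capitals. All 4 are on the plus strand, and they begin at position 122644074 (P2rx7, usual start) and 122650424 (P2rx7, other start) of chromosome 5 and at 40659885 (Entpd1, inner start) and 40612421 (Entpd1, outer start) of chromosome 19.
P2rx7 usual start: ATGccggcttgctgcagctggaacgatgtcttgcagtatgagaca
P2rx7 other start: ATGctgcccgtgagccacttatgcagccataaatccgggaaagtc
Entpd1 inner start: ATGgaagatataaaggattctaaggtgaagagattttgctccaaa
Entpd1 outer start: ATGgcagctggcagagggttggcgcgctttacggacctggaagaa

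Gene expected counts, the estimated reads per gene, summed to between 33044910 and 36769402 per library. A count of 0 allows up to 3 counts, which is 0.0816 to 0.0908 CPM (counts scaled to library size) and covers counting error only. Levels are given in TPM, the authors' abundance of a gene among all transcripts, corrected for transcript length. Protein-coding genes held 38.4%, 26.6% and 34.8% of TPM in libraries 1, 2 and 3, and 9 of the 10 genes had their lowest TPM in library 2. All 8 macrophage markers reached 1 TPM in each library. Of the other cell types, platelet markers reached it for 1 of 6 (Pf4), T and NK cell markers for 1 of 7 (Cd4), neutrophil markers for 2 of 6 (S100a8 and S100a9), and markers of B cells, dendritic cells, mast cells, and endothelium and fibroblasts for none. Their summed levels ranged from 214 to 244 TPM for platelets, nearly all of it Pf4, and from 20.5 to 37.4 for T and NK cells. The sums were 29.1 to 35.2 for neutrophils and at most 2.53 for any of the others. Of the platelet markers, Gp9 had 1, 0 and 0 counts, Ppbp 17, 49 and 29, and Itga2b 2, 37 and 7. Cd3e and Ncr1 had 0 counts. Of the neutrophil markers, Ly6g had 0 counts, Elane 17, 8 and 2, and Mpo 17, 33 and 9. The part of these cell types in the levels was not tested, and in such bulk libraries fewer cells with a transcript and less of it per cell cannot be told apart.

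Of the 10 genes, 9 reached 1 TPM in each library, where 41.4% of the 22028 protein-coding genes did. Their median level was 13.6 TPM, beside 9.39 TPM over the 9128 protein-coding genes that reached the threshold. From the highest mean to the lowest the order was P2rx4, Entpd1, P2ry6, P2rx7, P2ry2, P2ry14, P2ry13, Adora2b, P2ry12 and Adora2a, and the means of the second quantification, made by the authors from the same libraries, fell in the same order. Neighbours in the order were apart in 4 of 9 cases, with ranges over libraries that did not overlap: Entpd1 above P2ry6 (1.64-fold), P2ry6 above P2rx7 (3.16-fold), P2ry14 above P2ry13 (2.88-fold) and P2ry12 above Adora2a (5.31-fold). P2rx4 was 1.18-fold above Entpd1 and higher in 3 of 3 libraries, but with overlapping ranges, and the ranges of the other 4 neighbouring pairs overlapped too. After rescaling each library over its protein-coding genes, P2rx4 lay at 336 to 348 TPM and Entpd1 at 268 to 319, and P2ry13 at 10 to 15.2 and Adora2b at 3.97 to 8.75, with no overlap in either pair. The rescaled ranges still overlapped for P2rx7 (48.3 to 62.2) and P2ry2 (34.7 to 48.4), for P2ry2 and P2ry14 (32.6 to 47.8), and for Adora2b and P2ry12 (4.62 to 6.04).

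**Figure D1:**
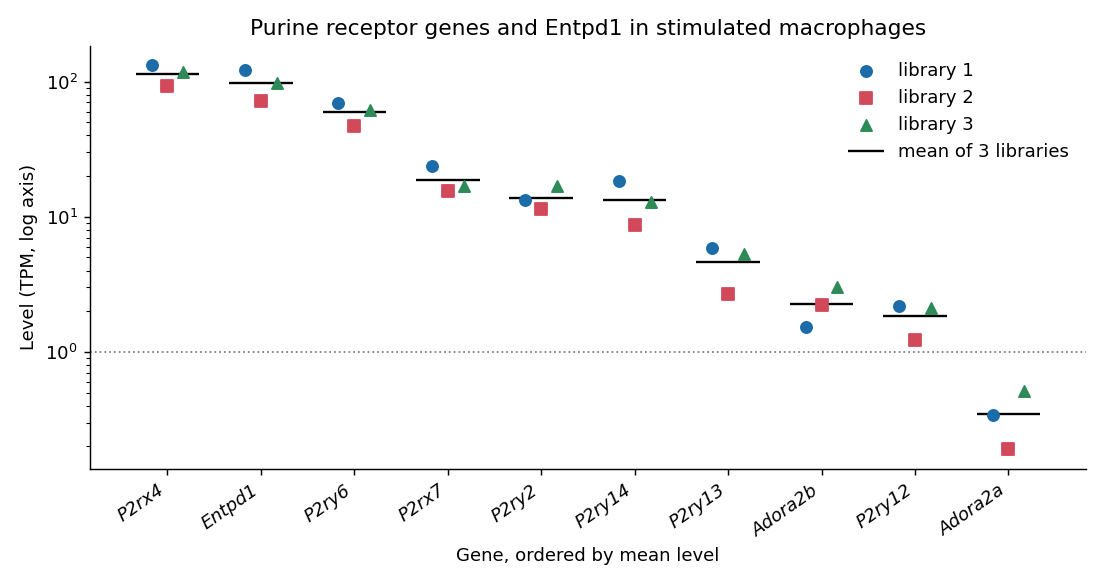
Level of each gene in TPM on a log axis, with 1 point per library and a line at the mean of 3 libraries; the dotted line is 1 TPM. P2rx4, Entpd1 and P2ry6 lie between 46.71 and 132.17 TPM in each library, and Adora2a lies under 1 TPM in each.

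The ion channels were led by P2rx4 (ENSMUSG00000029470.15, chr5:122707544-122729738), whose product is found largely in lysosomes and at the cell surface of macrophages. P2rx4 measured 132.17, 92.5 and 116.71 TPM in libraries 1, 2 and 3 (114 ± 20.0, SD, n = 3). It stood above 94.9% of the detected protein-coding genes. P2rx7 (ENSMUSG00000029468.17, chr5:122643911-122691432), the channel that opens the way to inflammasome activation at high ATP, measured 23.86, 15.47 and 16.79 TPM (18.7 ± 4.51, n = 3). P2rx7 was lower than P2rx4 in each library, and the ranges did not overlap. The genes lie on the same strand 16111 bases apart. The log2 ratio of P2rx4 to P2rx7 within a library was 2.46, 2.57 and 2.79 (2.61 ± 0.17, n = 3), a 6.1-fold difference.

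Among the P2Y receptors that couple to Gq, P2ry6 (ENSMUSG00000048779.5, chr7:100937630-100974649), the UDP receptor, was the highest. It measured 68.95, 46.71 and 61.92 TPM (59.2 ± 11.4, n = 3). P2ry2 (ENSMUSG00000032860.5, chr7:100996568-101012866), the receptor for ATP and UTP, measured 13.3, 11.39 and 16.84 TPM (13.8 ± 2.77, n = 3). These neighbours on the minus strand are 21918 bases apart, and P2ry6 exceeded P2ry2 in each library, with log2 ratios of 2.37, 2.03 and 1.87 (2.09 ± 0.25, n = 3; 4.25-fold). A gene of unsettled class on the opposite strand of P2ry6, Gm44545, had 12, 19 and 5 counts against 5001, 4994 and 5306 for P2ry6.

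The P2Y receptors that couple to Gi form a cluster on the minus strand of chromosome 3, and P2ry14 was the highest of them. P2ry14 (ENSMUSG00000036381.13, chr3:59113855-59153618), the receptor for UDP-glucose, measured 18.31, 8.67 and 12.8 TPM (13.3 ± 4.84, n = 3). P2ry13 (ENSMUSG00000036362.2, chr3:59207892-59210882), an ADP receptor, measured 5.84, 2.66 and 5.30 TPM (4.60 ± 1.70, n = 3). P2ry12 (ENSMUSG00000036353.13, chr3:59216272-59262871), known as the ADP receptor of platelets and microglia, measured 2.19, 1.23 and 2.10 TPM (1.84 ± 0.53, n = 3). P2ry14 was above P2ry13 and P2ry13 above P2ry12 in each library. The log2 ratio of P2ry14 to P2ry12 was 2.76 ± 0.23 (6.77-fold, n = 3), of P2ry14 to P2ry13 1.52 ± 0.23 (2.87-fold) and of P2ry13 to P2ry12 1.24 ± 0.17 (2.36-fold). All 3 lie inside Med12l, a Mediator subunit gene on the opposite strand with 0.18, 0.10 and 0.17 TPM. Med12l as a whole had 83, 67.4 and 89.6 counts, against 186, 157 and 209 for P2ry12, the lowest of the 3. Since the strand setting of the counting is not given in the sources used here, reads of the opposite strands cannot be told apart.

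Adenosine receptors were the lowest class. Adora2b (ENSMUSG00000018500.2, chr11:62248984-62266453), the low-affinity receptor that couples to Gs, measured 1.52, 2.23 and 3.04 TPM (2.26 ± 0.761, n = 3). Adora2a (ENSMUSG00000020178.6, chr10:75316877-75334784), the high-affinity Gs-coupled receptor known to restrain macrophage inflammation, measured 0.34, 0.19 and 0.51 TPM (0.347 ± 0.16, n = 3). Adora2a had 21, 29 and 25 expected counts, and its order between libraries in TPM, lowest in library 2, was not its order in counts, highest in library 2. The transcript tables divided it between a long transcript and a short one, and gave the short one 44.1%, 0% and 68.6% of its TPM. Adora2b exceeded Adora2a in each library (log2 ratio 2.42 ± 0.56, n = 3; 5.34-fold), and the ratio was 1.70 in the second quantification.

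Entpd1 (ENSMUSG00000048120.16, chr19:40612366-40741602, plus strand), also called CD39, converts extracellular ATP and ADP to AMP and is the first enzyme on the way to adenosine. It measured 122.23, 71.19 and 97.07 TPM (96.8 ± 25.5, n = 3), close to P2rx4 and above 94.0% of the detected protein-coding genes. Nt5e (CD73), which makes adenosine from AMP at the cell surface, had 11, 0 and 2 counts. High Entpd1 thus stood beside Nt5e at or near the limit that a count of 0 allows in libraries 2 and 3.

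For the 6 ratios of related genes, each was above 0 in 3 of 3 libraries. The two-sided exact sign-flip permutation test gave p = 0.25 for each ratio and 0.25 after Benjamini-Hochberg adjustment over the 6, and 0.25 is the smallest p that 3 libraries allow. A pseudocount of 0.1 TPM was added to both genes of a ratio, which understates the ratios of low genes.

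Set against 21 receptor genes grouped by name, P2X genes held 57% ± 1.51 of their summed TPM, P2Y genes 41.7% ± 1.44 and adenosine receptors 1.28% ± 0.398 (n = 3). The P2Y genes so grouped include P2ry10b, a relative, at 5.10, 2.87 and 3.41 TPM. P2rx4 alone held 48.8% ± 0.932 and P2ry6 25.3% ± 0.246. The share of P2ry6 was 25.2%, 25.2% and 25.6% in libraries 1, 2 and 3, although its TPM ranged from 46.71 to 68.95. P2rx7 followed with 8.0% ± 0.933, P2ry2 with 5.99% ± 1.06 and P2ry14 with 5.55% ± 1.03. These shares do not move with the amount of other RNA in a library.

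Differences between libraries were tested with edgeR on expected counts, which asks whether a gene spreads more than genes of like count. All 10 genes passed the filter on low counts, and none passed the test at a Benjamini-Hochberg adjusted p of 0.05 over all 12231 genes tested, where 1.66% of genes did. At an unadjusted p under 0.05 there were 3 of 10, P2ry14, P2ry13 and Adora2b, where 6.42% of all genes were. Adora2b had log2 CPM of 1.66, 2.68 and 2.74, lowest in library 1 (edgeR adjusted p = 0.42). P2ry14 had 5.15, 4.57 and 4.71, highest in library 1 (edgeR adjusted p = 0.635). P2ry13 had 4.11, 3.44 and 4.04, lowest in library 2 (edgeR adjusted p = 0.702). Of the 5 dendritic cell markers, 3 were also highest in library 1. Siglech had 40, 28 and 11 counts, Xcr1 63, 37 and 25, and Ccr7 108, 82 and 44. The others were not: Flt3 had 22, 39 and 16 counts, highest in library 2, and Zbtb46 11, 22 and 26, highest in library 3. The summed level of the 5 ranged from 0.96 to 2.53 TPM. Of the markers of other cell types that passed the filter, 2 of 5 for dendritic cells had an unadjusted p under 0.05. So did Cd4, the only T and NK cell marker that passed, and Kit, the only mast cell and basophil marker that passed. Both had their highest counts in library 1. None of the markers that passed for platelets (2), B cells (1), neutrophils (2) and endothelium and fibroblasts (2) did. The part of these cell types in the spread of P2ry14, P2ry13 and Adora2b was not tested. The count of 3 fell to 1 without library 1, without library 2, with a common dispersion and in the second quantification. At the other end, P2rx7 had 6.43, 6.41 and 6.36 and P2ry6 7.23, 7.12 and 7.16. The median range over libraries was 0.36 on the log2 scale for the 10 genes and 0.28 over all genes tested.

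**Figure D2:**
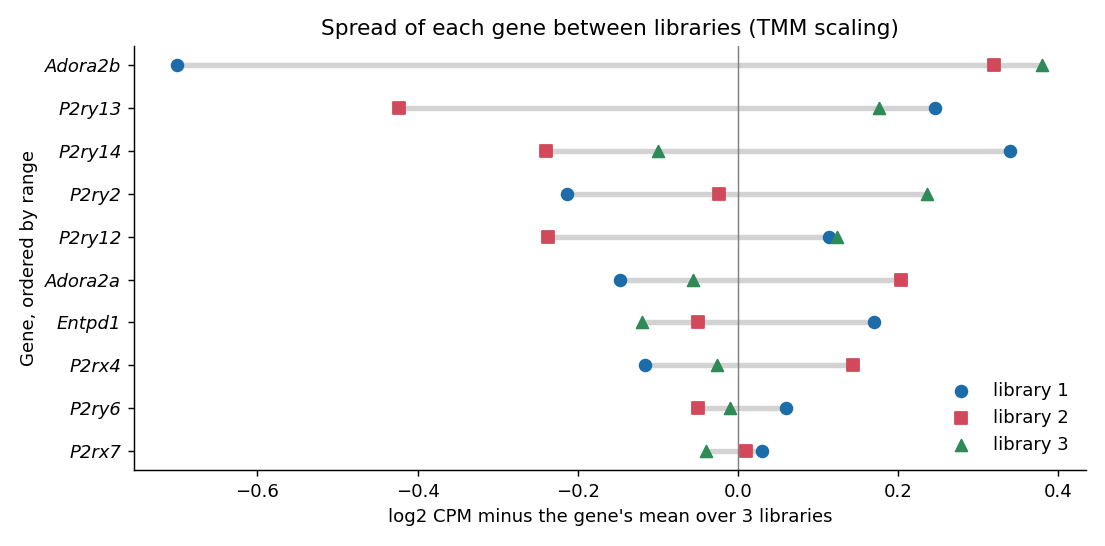
Log2 CPM of each gene in each library minus the mean of that gene over 3 libraries, after TMM scaling, with a grey bar over the range. Adora2b spreads the most, with library 1 low, and P2rx7 the least.

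At the transcript level, P2rx4 was split between forms with and without the 81-base exon printed above. The exon codes for 27 residues: a transcript with it codes for 388 residues and the main one without it for 361. The 388-residue transcript measured 30.4, 38.9 and 33.9 TPM in libraries 1, 2 and 3, and 2.8, 3.69 and 1.78 in the second quantification. A 366-residue transcript, which also keeps this exon, measured 43.4, 8.84 and 14.6 TPM, and 24.1, 12.4 and 8.48 in the second quantification. Which of them was the main form with the exon is not settled. Of the 5 annotated transcripts that span the place of the 81-base exon, 2 lack it. They held 38.9%, 45.9% and 55.1% of the summed TPM of these 5 in libraries 1, 2 and 3 (46.7% ± 8.14, n = 3). In the second quantification they held 49.2%, 58.1% and 61.6% (56.3% ± 6.41). Transcripts without the exon thus held a large part of the TPM assigned to those that span it, in each library and by both quantifications. These transcripts also differ in the annotated length of their last exon. It is 1452 bases in the 388-residue form, 758 in the 361-residue form and 37 in the 366-residue form. The part of this difference in the split was not tested. Another exon, of 66 bases at chr5:122727399-122727464, is spanned by 4 transcripts, and of the summed TPM of these 4 the transcripts without it held 34.9%, 9.89% and 13.0% (19.3% ± 13.6), and 11.5% without library 1. In the second quantification they held 39.2%, 29.7% and 27.9%, again highest in library 1. Shares of transcripts are estimates from reads that the transcripts mostly have in common.

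Most reads of P2rx7 were assigned to transcripts from its usual first exon, at chr5:122643911-122644198. The 5 transcripts that begin there held 92.2%, 85.7% and 88.5% of its expected counts (88.8% ± 3.26, n = 3). The transcript that begins at the other start codon printed above, which corresponds to the P2X7k form known from mouse T cells, held 0.754%, 0.581% and 0% of TPM, and 1.89% ± 0.5 in the second quantification. The full-length transcript, which codes for 595 residues, measured 12.7, 8.09 and 10.4 TPM. Forms with another last exon were lower: that of 431 residues measured 0.68, 1.01 and 1.98 TPM, and that of 442 residues 0.18, 0.29 and 0 TPM. In TPM the usual first exon held less, 66.9% ± 9.86, and 2 noncoding transcripts took up much of the rest. Both begin inside the last exon of the full-length transcript, at chr5:122680807-122684289. The first, a short processed transcript, was given 32.8%, 14% and 0% (15.6% ± 16.5), which is 7.0% without library 1 and 23.4% without library 3. The other, a retained intron, was given 7.5%, 21.6% and 22.1% (17.0% ± 8.27), and 0% in the second quantification. It spans chr5:122682182-122684284, wholly inside that last exon, so a read over it could belong to either transcript. The part of this overlap in the shares was not tested.

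The quantifications differed on the starts of Entpd1. Transcripts from the inner first exon, at chr19:40659770-40659900 (the 510-residue form and others), held 79.3%, 92.7% and 82.7% of TPM (84.9% ± 6.95, n = 3). Those from the outer first exon, at chr19:40612366-40612523 (the 539-residue form and others), held 16.1%, 1.29% and 9.51% (8.98% ± 7.43), and 5.4% without library 1. In the second quantification the shares were 50.0% ± 3.18 and 37.6% ± 2.26. The inner start was the larger in each library by both, but its lead is not settled. These forms share the start of their last exon and differ in its annotated length, 2780 against 972 bases.

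P2ry14 was divided evenly between its starts. Transcripts from the inner first exons, at chr3:59130494-59130762, held 49.9%, 45.4% and 49.5% of TPM (48.3% ± 2.48, n = 3) and 49.7% ± 5.17 in the second quantification. Those from the outer first exons, which lie between positions 59145824 and 59153618 and include a retained-intron transcript with 0.592% ± 0.586 of TPM, held 49.8%, 53.3% and 50.0% (51.0% ± 1.96) and 46.1% ± 3.39. Whether the starts change the coding sequence was not examined. The RefSeq window of 150 bases before the inner start, at chr3:59130763-59130912 (GRCm38.p6, minus strand), is shown. About as much of P2ry14 came from this start as from the outer one. Capitals mark a match to the NF-kB letters GGANTTTCC.
P2ry14 inner start: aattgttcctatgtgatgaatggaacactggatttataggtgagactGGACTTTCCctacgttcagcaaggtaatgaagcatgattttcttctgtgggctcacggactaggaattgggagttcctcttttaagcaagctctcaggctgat
Such a match, searched on both strands, was found in 0.688% of 32851 RefSeq windows of this length, and in 1 of the 14 windows of 8 of the 10 genes. The AP-1 letters TGANTCA were found in 4.24% of windows and in 1 of the 14, another P2ry14 window. That window, at chr3:59131329-59131478, lies next to first exons with 0.67% ± 0.528 of TPM. The PU.1 letters GAGGAAGT and the CRE letters TGACGTCA were found in 1.63% and 1.36% of windows and in none of the 14. The window at the outer P2ry14 start, chr3:59153493-59153642, is not shown and held none of the letters searched. A match is a description of letters and not a site.

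The other members had simpler or less certain transcripts. A single transcript held 98.2% ± 0.809 of P2ry6 TPM. The main group of P2ry2 first exons held 94.1% ± 3.39, and 92.2% ± 2.2 in the second quantification. P2ry12 was spread over several first exons, 24.1% ± 12.6, 36.3% ± 5.71 and 39.5% ± 8.31, at 157 to 209 counts in all. In the second quantification the same exons held 6.97% ± 12.1, 44.8% ± 15.0 and 43.7% ± 13.6. P2ry13 and Adora2b have 1 annotated transcript each.

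**Figure D3:**
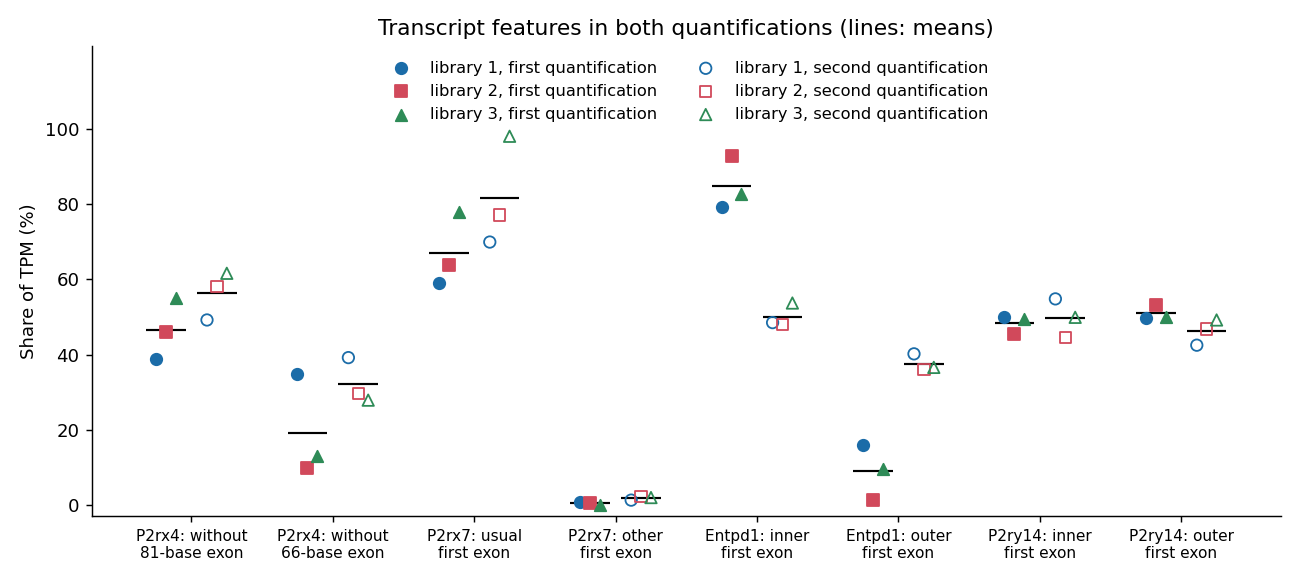
Share of TPM in transcripts with the named feature, in percent, for 3 libraries (points) and their mean (line); the share is of the transcripts that span the exon for P2rx4 and of all transcripts of the gene for the others, and filled points are the first quantification and open points the second. Both quantifications put P2ry14 near equal between its starts, and they differ for Entpd1.

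Most other purine receptors were under 1 TPM, while 7 of 16 enzymes, 6 of 12 genes for release and transport and 7 of 13 G protein alpha subunits reached it in each library, beside 41.4% of all protein-coding genes. Of the 12 genes listed as other purine receptors, 1 reached 1 TPM in each library, P2ry10b, a relative of the P2Y genes, at 5.10, 2.87 and 3.41 TPM. P2ry1 was next by mean, at 1.07, 0.74 and 1.47 TPM, with 138, 135 and 200 counts. P2rx2, Adora1, P2ry4 and Gpr17 had 0 counts in each. The nucleotide and adenosine enzymes were led by Pnp, which cleaves inosine and guanosine, at 63.1 ± 15.5 TPM, Entpd7, an intracellular relative of Entpd1, at 10.1 ± 1.41 TPM, and Adk, which returns adenosine to AMP, at 8.54 ± 2.07 TPM (n = 3 for each). Nucleotide release and nucleoside transport were led by Slc29a3, the lysosomal nucleoside transporter, at 37.0 ± 10.4 TPM, Slc29a1, the transporter of the plasma membrane, at 18.4 ± 2.25 TPM, and Panx1, a channel that releases ATP, at 6.04 ± 1.11 TPM. The G protein alpha subunits were led by Gnas (Gs) at 241 ± 45.8 TPM, Gnai2 (Gi) at 194 ± 34.0 TPM and Gna13 at 52.2 ± 7.48 TPM. The Gs subunit gene was high where the Gs-coupled adenosine receptors were low, and a relation between these levels was not tested. The filter on low counts was passed by 6 of 12 other receptors and 9 of 16 enzymes. It was also passed by 7 of 12 genes for release and transport and 9 of 13 alpha subunits. No gene that passed was called by the edgeR fit, where 1.66% of all genes tested were. None had an unadjusted p under 0.05, where 6.42% of all genes tested did. Of 8 genomic neighbours, 3 reached 1 TPM, Fchsd2 at 23.6 ± 4.0 TPM, Camkk2 at 10.6 ± 1.49 TPM and Gpr171, another receptor gene, at 1.27 ± 0.164 TPM.

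**Figure D4:**
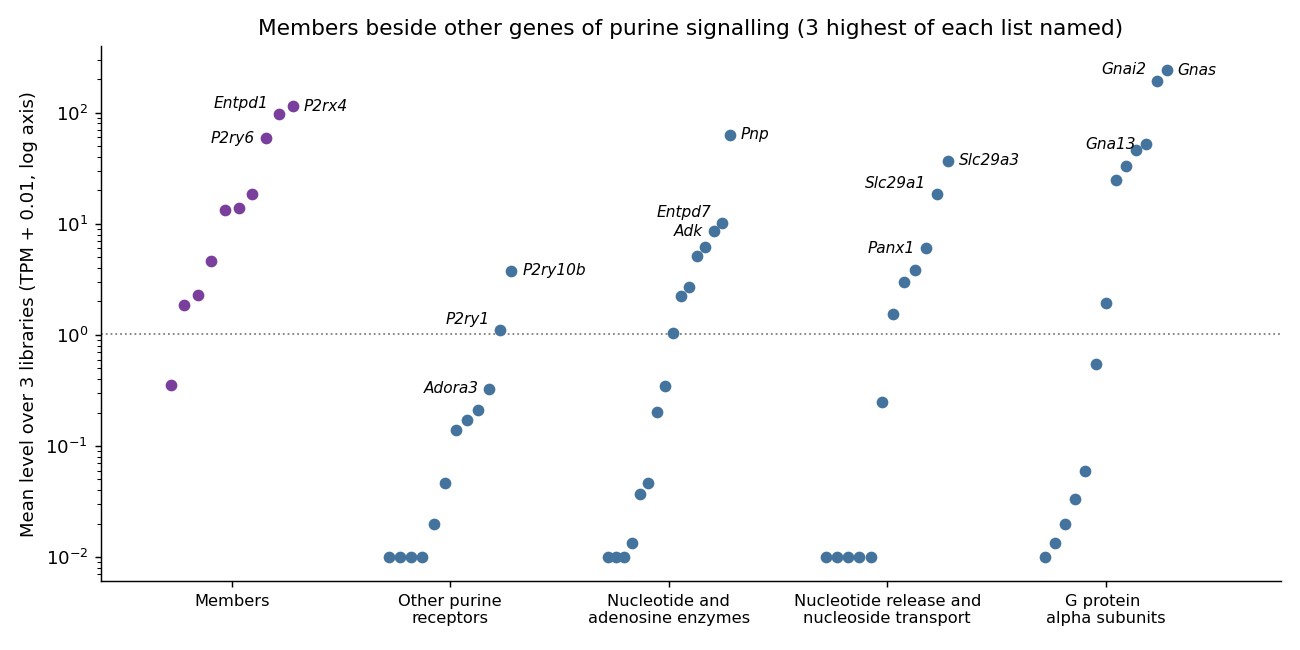
Mean TPM over 3 libraries, plus 0.01, on a log axis for the 10 genes described and for 4 lists of other genes of purine signalling, 1 point per gene; the dotted line is 1 TPM. Of the 12 other receptors, P2ry10b is the highest at 3.79 TPM.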

How the data were processed

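Total RNA, ribosomal RNA depleted, from the cytosolic fraction was measured in 3 libraries of 1 group. For each library the authors deposited expected counts per gene and transcript (estimated reads, not whole) and TPM values, in a first quantification, and estimated counts and TPM per transcript in a second. Per the notes deposited with each library, the build was mm10 and the annotation GENCODE M21. No source used here names the tools or the strand setting. TPM are shares of all RNA listed, so abundant small RNAs lower every other value. The members and lists were chosen with earlier results of these data known.

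Expected counts were rounded and tested with edgeR 4.0.16 in R 4.3.3: filterByExpr, TMM, trended dispersion, an intercept-only fit, chi-square goodness of fit of each gene, and Benjamini-Hochberg adjustment over 12231 genes at 0.05. The step was tested on simulated data. Levels used the deposited TPM, with detection at 1 TPM in each library. First exons that overlap were taken as 1 start. Python 3.11.15, pandas 2.3.3, scipy 1.17.1, numpy 2.4.6 and matplotlib 3.10.9 did the rest. Named were all 10 members, the 3 highest of each pathway list at 1 TPM or more, any list gene called by edgeR, and neighbours beside or over a member. P2ry1, P2rx2, Adora1, P2ry4, Gpr17, Nt5e and the markers with values were named after their values were seen. The alternatives were RLE scaling, a common dispersion, no filter, the second quantification, expected counts not divided by length, a pseudocount of 1 TPM, a threshold of 0.5 TPM, rescaling over protein-coding genes and leaving out each library. Promoter windows are RefSeq, GRCm38.p6. Sequences over coding exons were read from the GENCODE M21 transcripts.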

Additional observations from a re-analysis of the deposited data

How the results depend on the processing

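No paired analysis was possible because the labels give 1 group. None of the 10 genes passed the adjusted threshold under any alternative tried, and every ratio kept its sign. Over all genes, 203 varied between libraries, and leaving out 1 library gave 89 to 132, with fewer libraries in the fit; RLE scaling gave 203, the second quantification 200, no filter 221 and a common dispersion 298. In the second quantification 6 of the 10 genes reached 1 TPM in each library in place of 9, and 9 did after rescaling it over protein-coding genes, a step chosen after seeing the data.

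Ratios are on the log2 scale. In the second quantification P2rx4/P2rx7 was 3.08 and Adora2b/Adora2a 1.70. With expected counts not divided by length, P2rx4/P2rx7 was 1.75, P2ry6/P2ry2 1.55, P2ry13/P2ry12 1.49, P2ry14/P2ry12 2.44 and P2ry14/P2ry13 0.95, since long transcripts yield more reads. With a pseudocount of 1 TPM, P2ry13/P2ry12 was 0.95, P2ry14/P2ry12 2.29 and Adora2b/Adora2a 1.26. Levels depend most on the scale: P2rx4 was 114 TPM as deposited, 50.3 in the second quantification, and 343 and 429 after rescaling each over protein-coding genes. For Entpd1 the values were 96.8, 43.7, 289 and 364, for P2ry6 59.2, 20.0, 178 and 171, and for Adora2a 0.347, 0.15, 1.02 and 1.41. Adora2a, at 21 to 29 counts, is limited by depth.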
